A study of Mus musculus with 10 samples.

Results

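Wide ZFP266 peaks are the stretches of at least 4000 bp in a list of DamID-seq peaks from mouse embryonic fibroblasts (MEFs). They were chosen by their measured width, the end of a peak minus its start in the list that the authors called, so the width itself is a description and not a result. Of 15119 peaks, 1084 were wide. The other peaks comprised 14030 shorter ones and 5 over the *Zfp266* gene, which were left out because the plasmid carries that coding sequence.

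DamID maps where a protein comes near DNA by fusing it to Dam, a bacterial enzyme that adds a methyl group to the A of GATC. DpnI cuts only methylated GATC sites, so the unit of the measurement is the fragment between neighbouring GATC sites, and a peak is one fragment or a run of them. ZFP266 belongs to the KRAB zinc finger proteins, many of which bind transposable elements and recruit repressive chromatin. B1 is a family of short interspersed elements (SINEs) of rodents, and AP-1 is the dimer of FOS and JUN proteins that binds many enhancers of fibroblasts.

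The list compares 5 samples with Dam fused to ZFP266 (*PGK-mO-Dam-Zfp266*) with 5 samples with Dam only (*PGK-mO-Dam*). All were MEFs of strain 129, taken 48 h after nucleofection and sorted for mOrange by the labels, where the methods name GFP, with 32 ng of genomic DNA per library. In both plasmids the PGK promoter drives mOrange as the first open reading frame. Dam or its fusion is meant to be made only at a low level by reinitiation of translation, and its level was not measured here. The list pools the 10 samples and reads were not used, so it gives no value of a single sample, no replicate error and no read depth, and differences between sets of peaks are given as descriptions without a test. Intervals given with shares are 95% Wilson intervals and cover counting error only.

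The wide peaks made up 7.17% of the list and 19.3% of its bases. They spanned 6.03 Mb, of which 5.66 Mb was known sequence, equal to 0.214% of the ungapped GRCm38 genome. Their median width was 4778 bp with quartiles of 4283 and 5589 bp, and 892 of them were shorter than 6000 bp. The limit of 4000 bp fell within a continuous range. The 2 narrowest wide peaks, in *Stau1* at chr2:166975095-166979094 and in *Piezo1* at chr8:122537963-122541962, each measured 4000 bp with signal values of 0.649 and 0.954. Just below the limit, a peak in *Rnf44* measured 3998 bp with a signal value of 0.531.

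The values that the peak caller gave come from the contrast that also set the width. They are given as descriptions, to name peaks and as a filter in an alternative, and no conclusion is drawn from them. The signal value sets the fusion against Dam alone on a scale that is not stated for the list. Its median was 0.694 in wide peaks, 0.807 in peaks from 2000 bp up to the limit, 0.939 in those from 1000 bp to under 2000 bp and 1.00 in those under 1000 bp. The median −log10 q-value ran the other way, from 1.25 in the shortest class to 1.47 in wide peaks. A q-value under 0.05 was listed for 690 wide peaks (63.7%), beside 52.5% of all peaks in the list. With a signal value above 1 as a further condition, 99 wide peaks (9.13%) remained, beside 26.4% of all peaks. Limits on the false discovery rate and the log2 fold change are the example that the methods give for called regions. Whether the signal value is that fold change is not stated, so how much of the list meets both of their limits is not known.

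Most wide peaks were runs of several fragments. Their median number of DpnII fragments was 5 (mean 4.94, SD over peaks 2.30), and the highest number was 16. Only 45 wide peaks (4.15%, interval 3.12 to 5.51%) were a single fragment. The share of single fragments was 93.5% among peaks under 1000 bp, 69.1% from 1000 bp to under 2000 bp and 30.9% from 2000 bp up to the limit. The longest fragment of a wide peak had a median of 2084 bp and covered a median of 41.1% of the width.

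The wide peak with the most fragments, 16, lay at chr10:37329144-37337134, 190217 bp from *Marcks*, and none of its fragments exceeded 1087 bp. An intronic peak of *Dlgap1*, which encodes a scaffold protein of synapses, held 15 fragments in 7485 bp at chr17:70735201-70742685. A peak in *Runx2*, the master regulator of osteoblasts, held 14 fragments in 8342 bp at chr17:44766771-44775112, and its signal value was 0.479. A peak in *Lgr6*, which encodes a receptor of R-spondins, held 13 fragments in 5287 bp, the longest of them 818 bp. The peaks at chr9:96750981-96758777, with 13 fragments, at chr16:55549208-55556404 and in *Fbxl13* at chr5:21487579-21495118, followed, the last ones among 5 peaks with 12 fragments. Signal values of the peaks named here lay between 0.447 for *Lgr6* and 0.734 for the peak near *Marcks*.

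The 5356 fragments inside wide peaks had a median length of 813 bp, beside 260 bp over all 6669599 fragments of the genome. Not counting their ends, GATC sites were sparser inside wide peaks (0.755 per kb) than in the adjacent stretches of equal length on both sides (2.45 per kb) and in the whole genome (2.52 per kb). Shorter peaks held 0.410 inner sites per kb, but 59.7% of them were single fragments, which have no inner site by construction. Among peaks of at least 2 fragments, the ratio of wide over shorter peaks was 1.02. Leaving out the ends removes a larger part of the sites of short peaks. The mean fragment length among peaks of at least 2 fragments was 1056 bp in wide peaks, N bases included, and 828 bp in shorter ones. Of the fragments in wide peaks, 685 (12.8%) were under 200 bp, and the shortest was 5 bp. Such short fragments lay inside the runs, since only 1 of 2168 outermost fragments of wide peaks was under 200 bp. Of the first fragments beyond the ends, 1009 (46.5%) were under 200 bp, close to the 41.7% of all fragments of the genome.

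Long fragments lay in peaks more often than all fragments taken as one set, of which 0.446% did. GRCm38 has 995 fragments of at least 4000 bp, and 79 of them (7.94%) lay in a peak, which is then wide by construction. The share grew with fragment length, from 0.0882% under 200 bp. Among the 811 of these fragments without N bases, 71 (8.75%) lay in a peak. In shorter peaks, the median signal value was 0.986 for single fragments and 0.770 for several fragments. Single-fragment wide peaks had a median signal value of 1.06, against 0.686 for wide peaks of several fragments. They included a peak 206352 bp from *Hand2*, a transcription factor gene of heart and limb development, at chr8:57110084-57114630 with a signal value of 2.18. They also included an intronic peak of *Tcf12*, which encodes an E protein, at chr9:72095415-72100128 with 1.72, and one of *Hs6st2*, a heparan sulfate sulfotransferase gene, at chrX:51557308-51562317 with 1.60. The peaks at chr11:60965561-60969843 and chr1:90443860-90448761, with 1.65 and 1.61, were single fragments as well.

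Most of the greatest widths included an assembly gap. A run of N lay in 10 wide peaks (0.923%, interval 0.502 to 1.69%) and in 5 shorter peaks (0.0356%). The widest peak of the list, 93799 bp in *Sgms2* at chr3:131373188-131466986, contained 89954 N and only 3845 bp of known sequence. A peak in *Maml2*, which encodes a coactivator of Notch signalling, measured 92517 bp at chr9:13323226-13415742 with 90000 N and 2517 known bases. The peaks at the end of *Pstpip2* and in *Rasgrf2* were single fragments that span a gap, with 838 and 1106 known bases. In *Msl2*, a peak of 10526 bp at chr9:101082617-101093142 kept 4026 bp beside a gap of 6500 bp, with 6 fragments and a signal value of 1.62. Counted without N, 7 of the 10 peaks fell under 4000 bp, and 1077 wide peaks were left. The gaps together made up 6.20% of the bases of wide peaks.

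The other peaks of extreme width were internally repeated. In 28 wide peaks (2.58%, interval 1.79 to 3.71%), at least 30% of all stretches of 16 bases recurred within the same peak, a limit chosen after the values were seen. The share was 0.741% in shorter peaks. Of the 9 wide peaks over 20000 bp, 6 held a gap and 4 were internally repeated, with the peak at *Asmt* in both groups. The longest peak with neither, in *8030462N17Rik* on chromosome 18, measured 11630 bp.

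The longest repeated peak covered 79377 bp of the Y chromosome at chrY:4071861-4151237 without any inner GATC site. In it, 97.7% of 16-base stretches recurred, most often at a distance of 2297 bp, and the signal value was 2.62. The highest signal value of any wide peak, 2.79, belonged to a single fragment of 30751 bp at chr7:64465607-64496357, which lies 5348 bp from *Apba2* and has a main period of 46 bp. The −log10 q-values of these peaks were 1.33 and 1.04. At the end of the X chromosome, 3 wide peaks shared a main period of 31 bp. They are a peak at chrX:170677737-170745138, which begins in the end of *Asmt*, the gene of the last enzyme of melatonin synthesis, and lies mostly downstream, and the peaks at chrX:170808701-170848118 and chrX:170859915-170867891. The whole of the last one had a copy at 100% identity at chrX:170737162-170745138, inside the first one, so reads from either place cannot be told apart.

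Repeated wide peaks also lay in or beside genes. A peak of 9604 bp that begins in the 3′ end of *Cdkn1a*, the gene of a cell cycle inhibitor, and lies mostly downstream of it was at chr17:29100087-29109690 with 2 fragments, a main period of 23 bp and a signal value of 1.44. *Ttc34* held 15682 bp at chr4:154839981-154855662 with a main period of 37 bp, and *Klhdc4* held a single fragment of 6094 bp at chr8:121821997-121828090 with a period of 51 bp. *Rrp15*, which encodes a factor of ribosome assembly, held 9823 bp at chr1:186726053-186735875 with 6 fragments and a period of 31 bp. *Rsph3b*, which encodes a radial spoke protein of cilia, held a single fragment of 6989 bp at chr17:6931815-6938803 with a period of 25 bp and a signal value of 1.66. The units are shown as examples of what recurs, and they do not fill the whole of each peak. Each is the first copy found at the main period on the plus strand of GRCm38, and capitals mark the stretch of 16 bases that recurs most often in the peak.
chr7:64465714-64465759, near Apba2: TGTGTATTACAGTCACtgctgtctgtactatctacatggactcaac
chrX:170728339-170728369, downstream of Asmt: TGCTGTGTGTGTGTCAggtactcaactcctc
chrX:170809652-170809682: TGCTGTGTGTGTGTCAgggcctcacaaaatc
chrX:170860320-170860350: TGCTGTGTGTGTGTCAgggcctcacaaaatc
chr17:29101642-29101664, downstream of Cdkn1a: ATCACTGAGAGTTGTAgaactcc
chr4:154840818-154840854, Ttc34: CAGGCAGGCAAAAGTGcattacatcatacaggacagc
chr8:121822048-121822098, Klhdc4: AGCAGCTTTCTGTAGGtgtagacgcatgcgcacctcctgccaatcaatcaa
chr17:6931927-6931951, Rsph3b: TGTGTGGTTCTGACTGcagtgggcc

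The capitals are the same in the 3 units of the X chromosome, and the rest of the unit is the same in 2 of them. The most frequent stretch occurred 533 times in the peak near *Apba2*, 147 times in that at *Cdkn1a* and 293 times in that of *Ttc34*. An alignment to another place over at least 50% of the width was found for 17 wide peaks (1.57%) and 545 shorter peaks (3.88%). The criterion asks for a longer alignment the wider the peak, so these shares cannot be compared as such.

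Base composition differed little with width. The median GC content was 43.4% in wide peaks (quartiles 40.1 and 46.4%), 43.5% in shorter peaks and 43.5% in the stretches adjacent to wide peaks, beside 41.7% of all genome bases. The ratio of observed to expected CpG was 0.204 in wide peaks, 0.208 in shorter peaks, 0.223 in the adjacent stretches and 0.190 in the genome. Bases that the reference marks as repeats made up a median of 23.8% of a wide peak and 24.6% of a shorter one. The 28 internally repeated peaks had a median of 62.5%.

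AP-1 motifs (TGACTCA or TGAGTCA, which are each other's reverse complement) were present in 818 wide peaks (75.5%), beside 41.8% of shorter peaks, which are shorter targets. Per kb, wide peaks held 0.284 motifs, fewer than the 0.343 of shorter peaks and more than the 0.206 of the adjacent stretches or the 0.164 of the genome. Of the adjacent stretches, which are as long as the wide peaks, 62.3% held a motif. Other peaks took up 8.71% of the bases of these stretches. The density fell with width, from 0.445 per kb under 1000 bp to 0.303 per kb in wide peaks under 6000 bp. At 6000 bp and above the density was 0.229 per kb, but 15 of these 192 peaks were internally repeated. As a set, the 28 internally repeated wide peaks held 0.071 motifs per kb. The density at 6000 bp and above without such peaks was not computed. Without the internally repeated peaks, the density was 0.297 per kb in wide peaks. Within wide peaks that had neither a gap nor internal repeats, the central 40% of the width held 0.327 motifs per kb, the outer 20% at each end together 0.263, and the 20% beyond each end 0.217. B1 SINEs showed no such rise, with 0.180, 0.170 and 0.182 per kb in the same order. Each of 10 equal bins inside these peaks held 0.145 to 0.211 per kb, and bins of that size further out held 0.136 to 0.171.

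The median wide peak held 1 motif, and 24.5% held none. *Runx2* is an example with more, 5 in an intronic peak of 14 fragments. *Egfr*, the gene of the epidermal growth factor receptor, had 3 in its widest peak, and *Ano6*, which encodes a scramblase of membrane lipids, had 9 over its 4 wide peaks. The following sites are on the plus strand of GRCm38, with the motif in capitals.
chr17:44771026-44771072, Runx2: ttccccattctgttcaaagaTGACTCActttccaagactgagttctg
chr17:44772510-44772556, Runx2: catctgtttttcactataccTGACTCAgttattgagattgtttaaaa
chr11:16851180-16851226, Egfr: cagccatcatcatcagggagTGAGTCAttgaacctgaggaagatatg
chr15:95805305-95805351, Ano6: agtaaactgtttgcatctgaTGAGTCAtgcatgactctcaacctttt
chr3:138764474-138764520, Tspan5: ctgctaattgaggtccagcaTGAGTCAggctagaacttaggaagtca

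The 3 wide peaks with the most AP-1 motifs, picked out after their values were seen, held them largely at regular steps. An intronic peak of *Dop1b* at chr16:93778044-93782621 held 12 motifs, the most of any wide peak, and 11 of them followed each other at steps of 40 bp. Its signal value was 1.39 and its −log10 q-value 4.13. A peak at chr13:4774093-4781553, 164928 bp from *Akr1e1*, held 11 motifs, of which 7 followed at steps of 36 bp. In *Serpina9*, 7 of 8 motifs followed at steps of 24 bp. The next peak, at chr8:71003011-71007146, held 7 motifs without a common step, but it is internally repeated with a main period of 530 bp. At chr8:46316429-46321075, 5 of 6 motifs followed at steps of 14 bp. In *Dop1b*, the neighbourhood of a motif recurs unchanged at some of the evenly spaced sites and differs at others. Neighbouring sites where it is unchanged are shown on the plus strand of GRCm38.
chr16:93778243-93778289, Dop1b: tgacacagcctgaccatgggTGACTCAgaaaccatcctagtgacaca
chr16:93778283-93778329, Dop1b: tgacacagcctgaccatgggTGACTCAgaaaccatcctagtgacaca

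B1 SINEs were found by alignment of a consensus of 145 bp that was built from the reference itself, from 21957 repeat-masked windows around the core of the B box, the internal promoter element of the family.

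A B1 SINE was present in 530 wide peaks (48.9%), beside 29.3% of shorter peaks and 46.3% of the adjacent stretches. Per kb, wide peaks held 0.171 elements, shorter peaks 0.222, the adjacent stretches 0.166 and the genome 0.106. Among elements of at least 100 bp at 85% identity or more, the densities were 0.106 in wide peaks, 0.144 in shorter peaks and 0.0825 in the stretches adjacent to wide peaks. The 969 elements in wide peaks had a median identity of 90.6% to the consensus, against 90.9% in shorter peaks and 86.9% in the genome. Wide peaks within genes held more B1 SINEs (0.200 per kb) and fewer AP-1 motifs (0.262 per kb) than those outside genes (0.138 and 0.309 per kb). Neither an AP-1 motif nor a B1 SINE was found in 132 wide peaks, and 396 held both. Counted by fragment, 34.5% of those in wide peaks held either, beside 9.29% of fragments in no peak. The share was higher, 40.8%, in shorter peaks, here with those at *Zfp266* included. These sets differ as targets, since the median fragment was 813 bp in wide and 907 bp in shorter peaks and is much shorter in the genome.

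The most B1 SINEs, 8, lay in a peak of 6399 bp in *Morf4l1*, which encodes a chromatin protein with a chromodomain, at chr9:90105188-90111586. A peak of *Tom1l2* at chr11:60333538-60342075 and one of *Ube2l3*, a ubiquitin-conjugating enzyme gene, at chr16:17189001-17194761 held 7 each, as did a peak of *Rbm27* on chromosome 18. These 4 peaks were named after their values were seen.

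KLF core motifs, the binding sites of Krüppel-like factors, occurred at 0.350 per kb in wide peaks, 0.375 in shorter peaks, 0.344 in the adjacent stretches and 0.247 in the genome. Both strands were searched.

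Wide peaks met genes somewhat more often than shorter ones. A base of a protein-coding gene lay in 586 wide peaks (54.1%, interval 51.1 to 57.0%) and in 45.8% of shorter peaks (interval 45.0 to 46.6%). Of all bases of wide peaks, 51.2% lay in such genes, beside 44.4% for shorter peaks and 35.8% for the genome. The 586 peaks met 526 of 21000 genes (2.5%), while any peak met 17.1% of them. Most wide peaks were intronic by their midpoint (52.5%) or intergenic (44.4%), and 18 had a midpoint in a promoter and 16 in an exon. These classes are not limited to protein-coding genes, since 30 wide peaks outside such genes had an intronic midpoint.

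Few genes held more than one wide peak. *Tspan5*, which encodes a tetraspanin that regulates the protease ADAM10, had the most, 5 of its 15 peaks, between chr3:138745728-138750262 and chr3:138859228-138863370. Their widths ranged from 4143 to 6137 bp and their signal values from 0.521 to 1.00. *Ano6* had 4 wide peaks of 11, with widths from 4250 to 7764 bp and signal values from 0.426 to 0.784. A further 8 genes had 3 wide peaks, 48 had 2 and 468 had 1.

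*Egfr* had 3 wide peaks among 4 in all, the largest of 8418 bp at chr11:16850367-16858784 with 7 fragments. *Nrg1*, which encodes a ligand of ERBB receptors, had 3 among 19. In *Smad3*, a transducer of TGF-β signals, 3 of 11 peaks were wide and lay close together between 63686578 and 63705320 on chromosome 9. *Efna5*, an ephrin gene, had 3 of 12, and *Dst*, which encodes a linker of the cytoskeleton, 3 of 9. *Ago2*, the slicer of RNA interference, had 3 of 5, which together covered 18.4% of the gene. *Mbnl2*, a splicing regulator gene, had 3 of 10, up to 8525 bp wide. *Mast4*, a kinase gene, had 3 of 8. *Dlgap1* and *Hs6st2* followed with 2 each, as those with the largest summed widths among the 48 genes with 2. Apart from a peak with its midpoint in an exon of *Nrg1*, all wide peaks of these 12 genes had their midpoint in an intron.

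Wide peaks with neither a gap nor internal repeats were at most 11630 bp. After *8030462N17Rik* they were a peak of 10640 bp in *Tent4a*, a poly(A) polymerase gene, at chr13:69521529-69532168 and one of 10552 bp in *Sipa1l1* at chr12:82248734-82259285 with 11 fragments. Next came 10074 bp at chr13:44413475-44423548, 307225 bp from *Jarid2*, and 10028 bp at chr13:96532766-96542793. The last one held 12 fragments and transcript starts of *Cert1*, which encodes a ceramide transporter, and of *Polk*, which encodes a translesion DNA polymerase. Its signal value was 0.355.

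A start of a protein-coding transcript lay in 46 wide peaks (4.24%, interval 3.20 to 5.61%) and in 2.22% of shorter peaks, which offer less room for one. A pair of genes was met by 11 wide peaks (1.01%), beside 0.478% of shorter peaks. Apart from that of *Cert1* and *Polk* they included that of *Pir* and *Vegfd*, a lymphangiogenic growth factor gene, in 7537 bp at chrX:164372136-164379672. A single gene, *2200002D01Rik* of 947 bp, lay wholly inside a wide peak, at chr7:29247259-29251318.

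Long genes were met most often. Of 940 genes of at least 200 kb, 128 (13.6%) held a wide peak, against 25 of 7749 (0.323%) under 10 kb. Per Mb of gene, the order differed, with 0.395 wide peaks in genes of at least 200 kb, 0.833 at 50 to 200 kb, 0.586 at 10 to 50 kb and 0.770 under 10 kb. Shorter peaks also had their lowest rate, 4.49 per Mb, in genes of at least 200 kb, and 65.5% of these genes held any peak. The widest ungapped peaks in long genes besides those above were 9639 bp in *Frmd5*, 8319 bp in *Plcb4*, a phospholipase C gene, 8087 bp in *Lhfp* and 7912 bp in *Lmo7*.

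Of 40 genes of fibroblasts and extracellular matrix, 4 (10%) held a wide peak and 16 (40%) held any peak, beside the shares of 2.5% and 17.1% over all protein-coding genes. Their median length of 46265 bp was above the 16690 bp of all protein-coding genes. Besides *Runx2* and *Smad3* these were *Tgfb2*, which encodes a TGF-β ligand, with 4648 bp at chr1:186677833-186682480, and *Zeb2*, a regulator of the mesenchymal state, with 5325 bp at chr2:45015932-45021256 and 4 AP-1 motifs. None of the 13 genes *Fos*, *Fosb*, *Fosl1*, *Fosl2*, *Jun*, *Junb*, *Jund*, *Batf*, *Batf3*, *Atf3*, *Jdp2*, *Maff* and *Mafk* held a wide peak, while 5 held a shorter one. None of 27 pluripotency genes did, and 3 held a shorter one. Of 395 genes named *Zfp* and a number, 7 (1.77%) held a wide peak and 81 (20.5%) any peak.

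The 7 zinc finger genes were *Zfp704*, *Zfp747*, *Zfp867*, *Zfp872*, *Zfp945*, *Zfp955a* and *Zfp955b*. The midpoints of the peaks of *Zfp747*, *Zfp867* and *Zfp945* lay in exons. The peak of *Zfp945* was the widest of them, 6874 bp at chr17:22843327-22850200. *Zfp955a* and *Zfp955b*, which neighbour each other, held peaks of 4088 and 4094 bp with 3 fragments, 2 AP-1 motifs and 1 B1 SINE each. The peak of *Zfp872* was internally repeated, with a main period of 23 bp. Of 1457 sensory receptor genes, 7 (0.480%) held any peak, and only *Olfr983* held a wide one, of 5369 bp at chr9:40092295-40097663. These genes are short, with a median of 948 bp, and of all genes under 10 kb 3.52% held any peak.

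Both plasmids contain the PGK promoter, and that of the fusion also contains the *Zfp266* sequence. No wide peak lay at *Pgk1*, and the nearest peak of any width was 113894 bp away. The 5 peaks left out at *Zfp266* measured 303 to 1773 bp, with signal values from 5.24 to 8.66.

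Wide and shorter peaks were about equally often close to other peaks. Another peak lay within 10 kb of 560 wide peaks (51.7%, interval 48.7 to 54.6%) and 48.4% of shorter peaks, and the median distance to the next peak was 9043 and 10990 bp. Peaks under 1000 bp had another peak within 10 kb more often (54.8%), and among peaks of at least 2 fragments the shares were 53.0% for wide and 53.1% for shorter peaks. Single-fragment wide peaks stood further apart, with 9 of 45 (20%) within 10 kb of another peak. When peaks less than 1000 bp apart were joined, 214 of 1074 joined loci with a wide peak held further peaks. The richest, in *Sik3*, which encodes a salt-inducible kinase, joined 7 peaks over 16952 bp at chr9:46034792-46051743, of which 1 was wide.

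Wide peaks occurred on every chromosome. Chromosome 16 had the most per Mb of known sequence (0.663) and the Y chromosome the fewest (0.0340), followed by the X chromosome (0.147). Shorter peaks were also sparse on the X chromosome, with 2.00 per Mb against 5.71 on chromosome 16. Of the 5 peaks on the Y chromosome, 3 were wide, and all 3 were internally repeated.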

How the data were processed

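The authors removed adapters with Cutadapt, mapped reads to GRCm38 with BWA, counted reads per DpnII fragment and called peaks with Daim. The list carries no sample name and is given for all 10 samples, so it was taken as a call on all of them together. The deposited list holds a score for each peak, a signal value that the authors give as a score without a stated scale, and its significance, of which the −log10 q-value was used and the p-value was not. All q-values in it are at most 0.1. Starts and ends of all 15119 peaks lie at the cut inside a GATC of GRCm38. Fragments, gaps and motifs (exact matches) were read from the reference. B1 SINEs were hits of blastn 2.17.0 of at least 80 bp at 70% identity with an e-value up to 10, and copies were found with minimap2. Genes were those of 45756 curated RefSeq transcripts, and a promoter ran from 1000 bp before to 100 bp after a start. Adjacent stretches have the width of the peak on each side. Versions were Python 3.11.15, numpy 2.4.6, pandas 2.3.3, scipy 1.17.1 and minimap2 2.31-r1302. The counting of fragments, gaps, AP-1 motifs and B1 SINEs at given positions, and the finding of repeat units, were tested on simulated sequence. The search for B1 SINEs, the overlap with genes and the search for copies were not part of that test.

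Named genes were taken from those met by the 12 wide peaks with most known bases, the 8 with the highest signal value and the 8 with the most fragments, the 12 genes with the most wide peaks, genes wholly inside one, members of the gene lists, *Pgk1* and *Zfp266*. Among genes with equally many wide peaks, those with the larger summed width were taken. Other genes were named after their values were seen, as were the length classes of fragments. The wide peaks and gene lists were chosen with earlier results of these data known. Sequences on chromosome 18 are not shown. No values of single samples were used, and read depth was not available from the list.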

Additional observations from a re-analysis of the deposited data

How the results depend on the processing

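No paired analysis was possible because the list, the only file used, pools the 10 samples, although the labels number the samples alike in both groups, and for the same reason leaving out a replicate was not possible. The list holds wide peaks without error over samples, and what read depth or mapping contributed to a width was not tested.

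With a limit of 3000 bp there were 2621 wide peaks with a median of 4 fragments, of which 9.84% were single fragments and 0.420% held a gap, and they met 1074 genes. The ratios of wide over shorter peaks were 1.98 for GATC sites and 0.884 for AP-1 motifs. All ratios for GATC sites count inner sites only, of which a single fragment has none by construction. With a limit of 6000 bp there were 192 with a median of 7 fragments, 4.17% with a gap and 60.9% in a gene, and they met 118 genes. The ratios were 1.61 for GATC sites, 0.680 for AP-1 motifs and 0.644 for B1 SINEs. Of these 192 peaks, 15 (7.81%) were internally repeated, and the ratios at this limit without them were not computed. Without N bases in the width, 0.279% held a gap.

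With only peaks of a q-value under 0.05 and a signal value above 1, there were 99 wide peaks with a median of 4 fragments. Of these 22.2% were single fragments, 4.04% held a gap, 43.4% lay in a gene and 3.03% held a transcript start, and they met 43 genes. The median repeat-masked share was then higher in wide than in shorter peaks by 2.72 percentage points, where over all peaks the medians differed by −0.817, though the share of all bases was 28.2% in wide and 28.0% in shorter peaks. The ratios were 2.21 for GATC sites, 0.584 for AP-1 motifs and 0.480 for B1 SINEs. With peaks less than 1000 bp apart joined, there were 1632 with a median of 6 fragments and 2.51% single fragments, and the ratios were 2.25, 0.925 and 0.856 in the same order. With peaks of at least 2 fragments, the ratios were 1.02 for GATC sites and 0.776 for AP-1 motifs.

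Against the adjacent stretches in place of shorter peaks, the ratios turned to the other side of 1, with 0.309 for GATC sites, 1.38 for AP-1 motifs and 1.03 for B1 SINEs, where they were 1.84, 0.828 and 0.773 against shorter peaks. An alternative chosen after seeing the data left out internally repeated peaks, which gave 1.93 for GATC sites against shorter peaks, and 0.324, 1.42 and 1.07 for the 3 ratios against adjacent stretches. The cause of these shifts was not tested. The other 56 values stayed within their interval or, for counts, within 1.5 times. The intervals of ratios and of differences of medians, used only here and not printed, are not Wilson intervals.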
